A study of Mus musculus with 14 samples.

Results

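The regions missing only at 72 h are stretches of open chromatin that had an ATAC-seq peak in 4T1 cells in normoxia and after 6, 12, 24, 36 and 48 h of hypoxia, and none after 72 h. Peaks that shared or touched a base, in any of the 7 lists, formed 108795 merged regions, and 1540 of these had a peak in the other 6 lists and none in the 72 h list. A further 36113 regions had a peak in all 7 lists. Of the 37653 regions with a peak in the other 6 lists, called tested regions here, 4.09% were therefore missing at 72 h. The regions were selected on these peak calls, so their presence and absence and their peak heights are given as a description only. Such a region is also called lost below, which means only that the 72 h list held no peak there. The paper compared accessibility in hypoxia with control cells and reports that few sites lost access, a measure unlike the absence of a peak.

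4T1 is a mouse mammary tumor cell line. Its cells were kept in normoxia (Ctrl) or at 1% oxygen for 6, 12, 24, 36, 48 or 72 h, with 2 replicates in each of the 7 groups and 14 samples in all. The labels of Ctrl name a normoxic culture without an oxygen level, while its treatment text repeats the protocol for 1% oxygen. Control 4T1 cells in flow cytometry of the same time course were kept at 5% oxygen, and whether this holds for the ATAC-seq cells is not given in the sources used here. Cells of all groups were fixed before the transposase was added. The labels state that no antibody was used, whereas the text of the study mentions a stain for HIF protein before ATAC-seq. Replicates were pooled before a list was called, so no value below has a replicate error and no test between times was possible. Intervals are exact (Clopper-Pearson) at 95% and cover counting error only. Promoters of the epithelial genes Epcam, Cdh1, Krt7, Krt8 and Krt18 had a peak in all 7 lists. Promoters of Ptprc, Cd3e, Cdh5 and Pdgfrb, which mark immune, endothelial and perivascular cells, had none in any list, whereas Csf1r and Pdgfra had one in all 7 lists, Col1a1 in 5 and Pecam1 in 3.

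In ATAC-seq, a transposase cuts DNA that is free of tightly packed nucleosomes, so a peak marks a site where proteins can reach the DNA. Such sites fall into promoters, where transcription starts, and distal sites, many of which are enhancers bound by transcription factors. In mammary and other epithelial cells, distal sites commonly carry the letters bound by AP-1, a dimer of Jun and Fos proteins, and by TEAD, the DNA-binding partner of YAP. In low oxygen, HIF proteins become stable and bind their own short sites.

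The bases around the strongest summit of 6 of the regions are given first, because they hold the letters that the results below count. These are the 3 regions with the highest signal in their weakest list, 1 region each nearest to Klf6 and Klf5, and the region at the start of Erbb2, a gene of the fixed lists. Each holds the summit base and 100 bases on each side of it, from mm9, plus strand, 5′ to 3′. Capitals mark matches to the 16 motifs searched, on either strand, and matches that overlap run together.
Intergenic, nearest start Gm4885, chr7:79784596-79784796: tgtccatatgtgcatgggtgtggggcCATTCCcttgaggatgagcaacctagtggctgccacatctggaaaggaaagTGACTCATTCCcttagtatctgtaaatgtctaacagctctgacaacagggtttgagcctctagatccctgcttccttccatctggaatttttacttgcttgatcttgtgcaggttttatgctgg
Exon of Tec, chr5:73148641-73148841: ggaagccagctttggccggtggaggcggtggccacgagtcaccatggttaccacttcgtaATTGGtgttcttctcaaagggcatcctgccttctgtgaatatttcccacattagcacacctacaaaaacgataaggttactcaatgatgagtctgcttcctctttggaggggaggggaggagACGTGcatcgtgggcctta
Intergenic, nearest start Pold4, chr19:4244914-4245114: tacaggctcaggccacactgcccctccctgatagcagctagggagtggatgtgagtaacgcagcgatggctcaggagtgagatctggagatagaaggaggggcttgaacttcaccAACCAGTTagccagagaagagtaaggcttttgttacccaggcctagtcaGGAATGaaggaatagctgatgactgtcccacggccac
Intergenic, nearest start Klf6, chr13:6022827-6023027: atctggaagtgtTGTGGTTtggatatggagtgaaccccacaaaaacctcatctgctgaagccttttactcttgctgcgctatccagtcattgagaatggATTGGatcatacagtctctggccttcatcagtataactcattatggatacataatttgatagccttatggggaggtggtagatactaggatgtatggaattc
Intergenic, nearest start Klf5, chr14:100035981-100036181: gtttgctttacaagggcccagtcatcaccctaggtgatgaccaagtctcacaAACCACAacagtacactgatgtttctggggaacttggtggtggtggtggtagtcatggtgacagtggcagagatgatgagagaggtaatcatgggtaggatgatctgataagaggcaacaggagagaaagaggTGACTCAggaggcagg
Promoter of Erbb2, chr11:98273673-98273873: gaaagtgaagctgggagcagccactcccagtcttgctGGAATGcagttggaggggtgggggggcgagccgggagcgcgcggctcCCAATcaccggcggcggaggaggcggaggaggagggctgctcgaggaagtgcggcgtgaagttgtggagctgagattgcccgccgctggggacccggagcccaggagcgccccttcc

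The stretch nearest to Gm4885 held an AP-1 match (TGANTCA) that overlaps 1 of its 2 TEAD matches (GGAATG), and that nearest to Klf5 an AP-1 and a RUNX match (TGTGGTT). The stretch nearest to Klf6 held a RUNX match and the letters CCAAT, which NFY binds. The promoter stretch of Erbb2 was rich in CpG, with 16 CpG against 0 CpG in the stretches nearest to Gm4885 and Klf5. Neither the Tec nor the Pold4 stretch held an AP-1 match. A match describes the letters and does not show that a factor was bound.

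The regions missing only at 72 h were mostly weak in the lists that held them. Strength is given here as -log10 q of a peak, where q is the chance of such a pile-up adjusted over the genome, and the lists reach down to a q of 0.05. It grows with depth and is not scaled between lists, so a region's values in different lists are set beside the medians given next. The median -log10 q of the 1540 regions was 6.24 in Ctrl and 5.26, 13.9, 9.47, 6.00 and 8.30 in the 5 later lists up to 48 h. In the regions of all 7 lists it was 16.5, 13.8, 32.1, 24.8, 19.1 and 27.2, in the same order. The median summit held 12 reads in Ctrl and 18, 27, 20, 16 and 20 reads in the 5 hypoxia lists, which is 43.5% to 58.1% of the median of regions in all 7 lists. The 12 h list had the highest -log10 q in 61.6% of the regions missing only at 72 h and in 56.2% of regions in all 7 lists. The next places differed, with 24 h highest in 16.0% and 48 h in 12.4% of the regions missing only at 72 h, against 12.5% and 26.4% of regions in all 7 lists.

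The share missing at 72 h fell steeply with strength. Strength of a tested region was taken as its median -log10 q over the other 6 lists. From 3 to 5, 197 of 647 tested regions were missing at 72 h, or 30.4%. From 5 to 10 it was 927 of 5975 (15.5%), from 10 to 20 387 of 11455 (3.38%), and at 20 or more 20 of 19559 (0.102%, interval 0.0625 to 0.158). Every list lacked weak regions in this way. From 10 to 20 the list at 6 h lacked 9.24% of the regions held by the other 6, Ctrl 3.44% and 36 h 0.749%. At 20 or more, 59 regions were missing only at 6 h (0.292%), 10 only in Ctrl (0.0504%) and none only at 12, 24, 36 or 48 h.

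**Figure D1:**
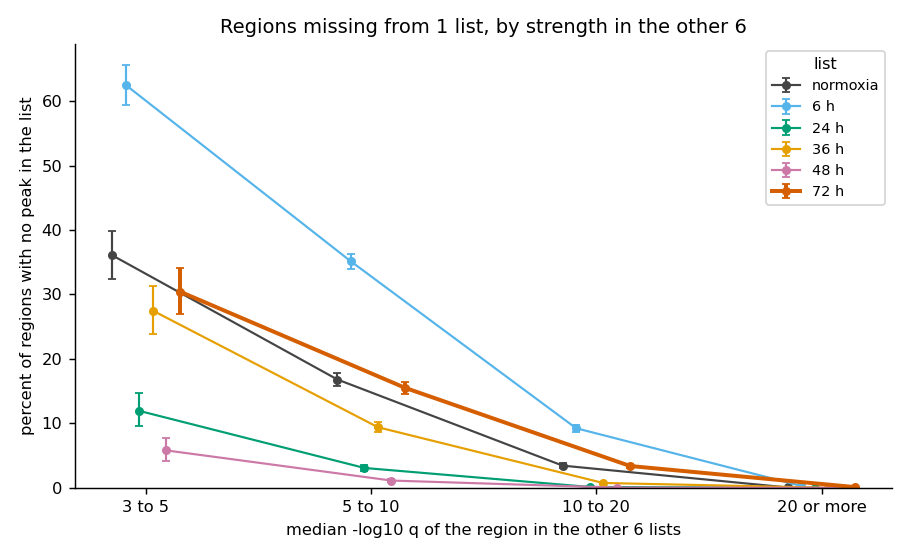
Percent of regions with a peak in the other 6 lists that had none in the list shown, against their median -log10 q in those 6 lists, for 6 of the 7 lists, with exact 95% intervals as bars. The 72 h line falls from 30.4% to 0.102% and stays close to that of Ctrl and below that of 6 h throughout.

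Over all strengths, 1630 regions were missing only in Ctrl (4.32% of those in the other 6 lists), 4295 only at 6 h (10.6%), 46 only at 12 h (0.127%), 279 only at 24 h (0.767%), 770 only at 36 h (2.09%) and 114 only at 48 h (0.315%). The median height over the genome background, in regions of all 7 lists, was 13.9-fold at 72 h, above the 9.53-fold at 6 h and below the 15.3-fold to 28.1-fold of the other lists. The part of this contrast in the absence of peaks at 72 h was not tested. The count of 1540 depended on the 6 h list, since 3084 regions were missing at 72 h when a peak at 6 h was not required. Of regions held by 5 lists, 1543 lacked a peak at 72 h and 6 h only, 448 at 72 h and 36 h only, 388 at 72 h and in Ctrl only, and 13 at 72 h and 12 h only.

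In most of the regions at least 1 of the 6 lists was under a -log10 q of 5, and some came close to the calling threshold. The lowest value that let a region count as present was a -log10 q of 1.31, at 12 h near Asap1, followed by 1.32 at 24 h near Mtl5 and near Rad51l1. Just outside, regions near Clnk and Dlc1 had a 72 h peak of 1.32 and a region near Tpst2 one of 1.40, and they were therefore in all 7 lists. In 144 of the 1540 regions the weakest list was under 2, in 344 every one of the 6 lists reached 5, and in 31 every one reached 10. At 72 h, 107 of the regions in all 7 lists were themselves under 2 and 598 were under 3.

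Depth at 72 h was set beside each region by scaling its reads in the other lists to 72 h with the regions of all 7 lists. The lowest summit of any 72 h peak held 9 reads, and 95% of the 72 h peaks held 11 or more. Scaled by median ratios, the regions missing only at 72 h had an expected median of 17.1 reads there (quartiles 14.4 and 21.1). This expectation reached 20 reads in 457 and 30 reads in 114 of them. Of tested regions expected to hold 11 to 15 reads, 24.8% were missing at 72 h, against 3.66% from 20 to 30 and 0.187% (28 of 15004) at 40 or more. A region with no peak can still hold reads below the calling threshold, and those reads are not in the lists.

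The 10 regions with the highest -log10 q in their weakest list are the clearest cases. The strongest, 33008 bp from the start of Gm4885, had a -log10 q of 20.8 in Ctrl and 20.5, 41.7, 37.9, 25.9 and 20.0 in the 5 later lists up to 48 h. Its summit held 28, 34, 51, 46, 34 and 30 reads in these lists, and 36.1 reads were expected at 72 h, where the nearest peak was 21051 bp away. Its -log10 q was highest at 12 h and 24 h, and at 48 h it was close to that in Ctrl, but these values are not scaled for depth. The median summit of regions in all 7 lists held 26 reads in Ctrl, 52 at 12 h, 40 at 24 h and 46 at 48 h. Beside these medians the region stood higher in Ctrl and at 24 h, about level at 12 h and lower at 48 h.

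The region in an exon of Tec, a cytoplasmic tyrosine kinase known from blood cells, lies 4729 bp from the start of the related kinase Txk. It had a -log10 q of 20.7, 17.9, 34.5, 33.3, 20.0 and 24.0 from Ctrl to 48 h, and its nearest 72 h peak was 1384 bp away. The region 13115 bp from the start of Pold4, a subunit of DNA polymerase delta, was at 38.6 in Ctrl, the highest Ctrl value of all 1540, and at 25.1, 51.0, 30.1, 16.9 and 23.3 in the hypoxia lists. Its lowest list was 36 h, so its height did not fall in steps.

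The region near Sema3e, a secreted guidance ligand, had the widest range among the 10. It was at 14.5 in Ctrl and 15.7, 52.9, 43.2, 21.4 and 21.1 in the 5 later lists up to 48 h. Regions far from Adamts5, a protease of cartilage matrix, and Fam135b, and one in an intron of Rcan2, a regulator of calcineurin, had their lowest values between 13.8 and 15.9. The region near Sep15 had a raised local background of 8.60 to 13.4 reads, against a genome background of 0.926 in Ctrl and 1.85 to 3.25 in the other lists, and a 72 h peak lay 646 bp away.

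**Figure D2:**
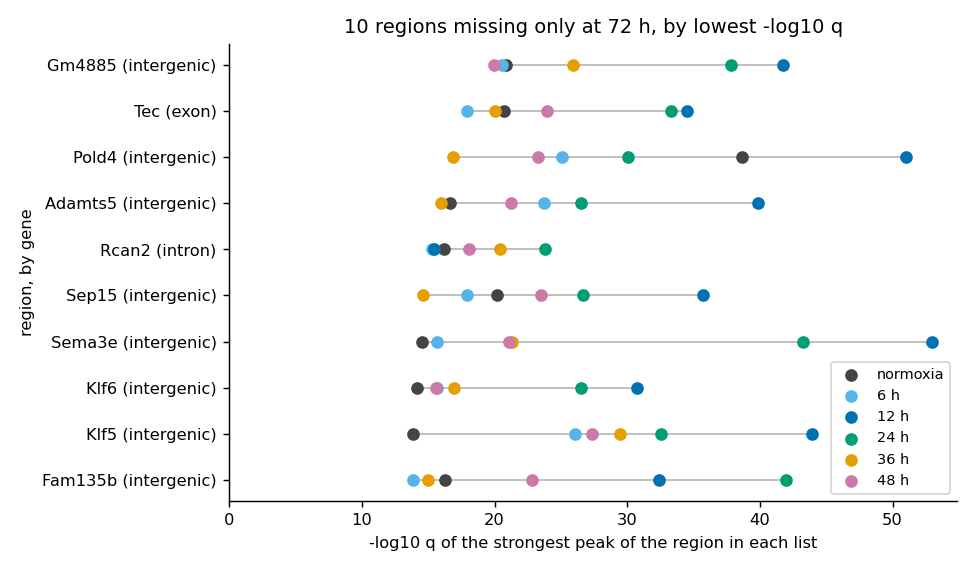
-log10 q of the 10 regions missing only at 72 h with the highest value in their weakest list (rows, named by gene), with 1 point for each of the 6 lists that held a peak; none had a peak at 72 h. The 12 h point is the highest in 8 of the rows, and the Gm4885 row spans 20.0 to 41.7.

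Klf5 and Klf6 encode zinc finger transcription factors that act in the growth and differentiation of epithelial cells, and each was the nearest start for several of the regions. Both were picked after their values were seen, and of all tested regions 4.09% were missing only at 72 h. Of 31 tested regions nearest to Klf6, 4 were missing only at 72 h, at 51879, 69279, 162192 and 228376 bp from a start of the gene. The farthest was at a -log10 q of 15.6 in Ctrl and 25.7, 37.1, 29.6, 24.8 and 13.7 in the hypoxia lists, so its lowest list was 48 h. The one at 162192 bp was at 14.2, 15.7, 30.7, 26.5, 17.0 and 15.6, and the one at 51879 bp reached 18.8 at 12 h while its other lists were at 1.77 to 5.82.

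Of 18 tested regions nearest to Klf5, 3 were missing only at 72 h. The one at 338171 bp was at 13.8 in Ctrl and 26.1, 43.9, 32.5, 29.5 and 27.3 in the 5 later lists up to 48 h, and its expectation at 72 h was 44.7 reads. The others, at 76541 and 230455 bp, had their lowest values at 2.51 and 3.54. Distance to a start does not show which gene a distal region acts on. Counted by nearest start, 1208 genes had 1 of the regions, 129 had 2, 22 had 3, and Klf6 and Gm10852 had 4. Gm10852 had 4 of 8 tested regions, Fam82a1 3 of 6 and Myc 3 of 53, so such counts were not particular to Klf5 and Klf6.

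The window chr13:6000001-7000000 held 5 of the regions among 26 tested, chr3:152000001-153000000 held 5 among 33 and chr16:30000001-31000000 held 5 among 40. No window of 1 Mb held more. By chromosome, the share of tested regions missing at 72 h ran from 3.02% (interval 2.05 to 4.28) on chromosome 18 to 5.58% (4.54 to 6.77) on chromosome 13, and on chromosome X it was 4.00%. Of the 1540 regions, 8.77% had another of them as a neighbour among the tested regions, against 8.0% of regions in all 7 lists. The regions were thus spread over the genome.

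By the height in Ctrl alone, other regions come forward. In an exon of Krt10, a keratin of the upper layers of skin, -log10 q was 22.7 in Ctrl and 9.47, 16.7, 12.5, 4.80 and 3.60 in the 5 later lists up to 48 h, with 24, 22, 26, 20, 13 and 12 reads. Near Ubl7 it was 23.2, 17.6, 36.0, 25.0, 11.9 and 6.62. In an intron of Ptprk, a receptor phosphatase, it was 21.4 in Ctrl and 4.2, 29.3, 23.7, 12.9 and 11 in the hypoxia lists. Of the 10 regions highest in Ctrl, 9 had lower values at 36 h and 48 h than at 12 h and 24 h. In Plxna4, a receptor of semaphorins, the step from 24 to 48 h was only from 22.0 to 21.96. The exception lay near Alkbh4, with 39.8, 7.60, 9.05 and 20.0 in the lists from 12 to 48 h. The share of all 1540 regions with this order was not counted, and the values are not scaled between lists. The medians of the 1540 were also lower at 36 h and 48 h (6.00 and 8.30) than at 12 h and 24 h (13.9 and 9.47). In regions of all 7 lists the median at 36 h (19.1) was likewise below those at 12 h and 24 h (32.1 and 24.8). Their median at 48 h (27.2) was also below that at 12 h, and only against 24 h did the order differ. The region nearest to Serp2, at 25.7 second in Ctrl, went to 9.97 at 36 h and 16.4 at 48 h. The intron region of Eps8, an actin regulator, also dropped, to 6.41 at 36 h and 8.91 at 48 h from 21.4 in Ctrl, but its local background was 8.38 to 12.8 reads and a 72 h peak lay 471 bp away.

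The next regions were chosen for their height at 48 h, the list before 72 h. The region nearest to Hlx, a homeobox gene, was at 32.1 at 48 h after 15.5 in Ctrl and 7.25, 33.1, 34.2 and 14.1 in the 4 lists from 6 to 36 h. The region nearest to Shroom4, an actin-binding protein gene on chromosome X, was at 31.3 at 48 h, and one in an intron of Arhgap42 at 29.0. A region 1290996 bp from Zeb2, a repressor of epithelial genes, was at 29.0 at 48 h and 15.4 in Ctrl. Regions near Zfp518a, Zfp36l1 and BC018507 had their highest -log10 q at 48 h, between 25.5 and 26.7, not scaled between lists. The median of regions in all 7 lists was 27.2 at 48 h and 13.8 at 6 h. The region near Zfp518a was at 13.8 at 6 h, so for it 48 h did not stand out beside these medians.

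As a group, however, the regions were already lower at 48 h than regions of the same strength that kept a peak at 72 h. From 5 to 10 in strength, the mean summit reads of the 927 regions missing only at 72 h, divided by those of the 5048 regions in all 7 lists, came to 0.973, 0.957, 0.992 and 1.00 in the lists from Ctrl to 24 h. The ratio was 0.905 at 36 h and 0.811 at 48 h. From 10 to 20 in strength, with 387 against 11068 regions, it was 0.859, 0.869, 0.885, 0.928, 0.832 and 0.718 from Ctrl to 48 h. The 48 h list had the lowest ratio in both classes.

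The same ratio for other lists shows what a missing peak is accompanied by in general. From 5 to 10 in strength, regions missing only at 36 h had a ratio of 0.862 at 24 h, 0.874 at 48 h, 0.890 at 12 h and 0.935 in Ctrl. Regions missing only in Ctrl had 0.863 at 12 h, with 0.955 at 6 h and 0.954 at 48 h, and those missing only at 6 h had 0.817 in Ctrl and 0.795 at 12 h. In this class, the lowest ratio of regions missing only at 24 h was 0.741, at 12 h, from 183 regions. For those missing only at 48 h it was 0.787, at 72 h, from 69 regions. From 10 to 20 in strength, regions missing only at 6 h had their lowest ratio in Ctrl (0.701). Those missing only in Ctrl had it at 12 h (0.785) and those missing only at 36 h at 24 h (0.765). The 15 missing only at 24 h had it at 12 h (0.682). A lower height in other lists was thus common, and its place differed between the sets. Some sets had ratios below those at 48 h given above.

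**Figure D3:**
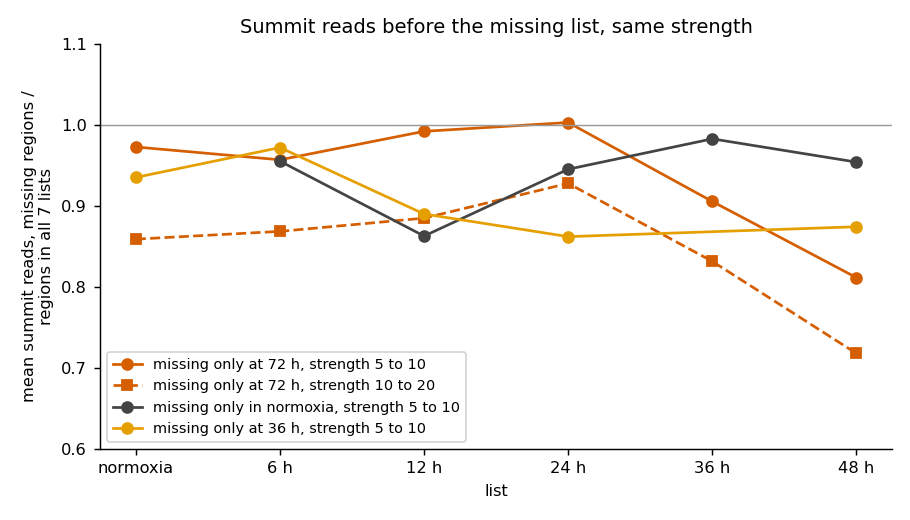
Mean summit reads of regions missing from 1 list divided by those of regions in all 7 lists of the same strength, in each of the other lists (horizontal axis). The line at 1 marks equal means, and regions missing only at 72 h go from 1.00 at 24 h to 0.811 at 48 h (strength 5 to 10) and from 0.928 to 0.718 (strength 10 to 20).

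Counted region by region, with reads of each list scaled to the median of regions in all 7 lists, 67.7% of the regions of strength 5 to 10 were lower at 48 h than at 12 h (interval 64.6 to 70.7). Among regions of that strength in all 7 lists it was 46.5% (45.1 to 47.8). From 10 to 20 the shares were 72.9% and 49.4%. The median change from 12 to 48 h was -15.2% in the regions of strength 5 to 10 missing only at 72 h and 2.92% in those kept. By -log10 q, 48 h was the weakest list in 9.35% of all regions missing only at 72 h and in 2.40% of regions in all 7 lists. The weakest list was also more often 36 h (25.1% against 14.7%), 24 h (8.31% against 4.47%) and 12 h (1.56% against 0.410%), and less often 6 h (34.2% against 51.2%) and Ctrl (21.5% against 26.9%), so the difference was not particular to 48 h.

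By position, the regions were more often distal than regions of all 7 lists. A promoter is taken as 1 kb on each side of an annotated start of a protein-coding gene. Of the 1540 regions, 196 were at promoters (12.7%, interval 11.1 to 14.5), 33 in other exons (2.14%), 524 in introns (34.0%) and 787 were intergenic (51.1%). Of regions in all 7 lists, 27.5% were at promoters, 1.68% in exons, 29.9% in introns and 41.0% intergenic. Promoter peaks are stronger on the whole, and at equal strength the gap was smaller, with 13.8% against 17.3% from 5 to 10 and 10.6% (7.71 to 14.1) against 20.8% from 10 to 20. Promoters made up 7.05% of regions missing only at 6 h, 10.1% of those missing only at 36 h and 9.69% of those missing only in Ctrl. The order turned where a 72 h peak counted only if it covered 50% of the narrowest other peak, which gave 32.7% promoters among 3431 regions against 26.3% of those kept.

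The base composition of the lost sites went in opposite directions at promoters and away from them. Within 100 bases of the summit, the median GC content of distal regions missing only at 72 h was 46.3%, against 48.3% in distal regions of all 7 lists. From 10 to 20 in strength the medians were 45.3% and 48.3%, and 23.4% of these lost sites held no CpG against 13.6%. At promoters the lost regions were richer in GC, with a median of 68.7% against 65.2%, and 73.1% against 64.7% from 10 to 20 in strength. Promoters missing only at 36 h (median 55.7%), at 6 h (57.2%) and in Ctrl (61.2%) were poorer in GC than the promoters in all 7 lists. Promoters missing only at 48 h were richer, as at 72 h, with a median of 75.6% in the 17 of strength 5 to 20 against 64.7% in those kept.

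In classes of GC, among tested regions of strength 5 to 20, the share of distal regions missing at 72 h was 12.3% (interval 10.6 to 14.1) under 40% GC, 8.37% (7.54 to 9.25) from 45 to 50% and 2.41% (1.33 to 4.02) from 60 to 70%. The 6 h list had a fall of the same kind, with 29.8%, 22.5% and 12.2% in these classes. At 36 h they gave 3.10%, 4.07% and 2.60%, and in Ctrl 11.2%, 8.52% and 7.68%. Distal sites of 70% GC or more, 119 in number, lacked a 72 h peak in 10.1% (5.32 to 17.0). Promoters of 70% or more lacked it in 79 of 1001 (7.89%, 6.30 to 9.74), against 2.25% (1.13 to 4.00) from 55 to 60%. The same class of promoters was missing in 0.478% at 36 h, 2.85% in Ctrl and 3.33% at 6 h. At 48 h it held 13 of the 17 missing promoters, with a share of 1.25% (0.670 to 2.14) against 0.0758% (0.00192 to 0.421) from 60 to 70%, so a higher share at 70% or more was seen at 48 h as well, at a lower level. The share lost at 72 h was therefore lowest from 60 to 70% GC in distal regions and from 55 to 60% at promoters. Base composition can alter how a library amplifies, and its part in the absence of these peaks was not tested.

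**Figure D4:**
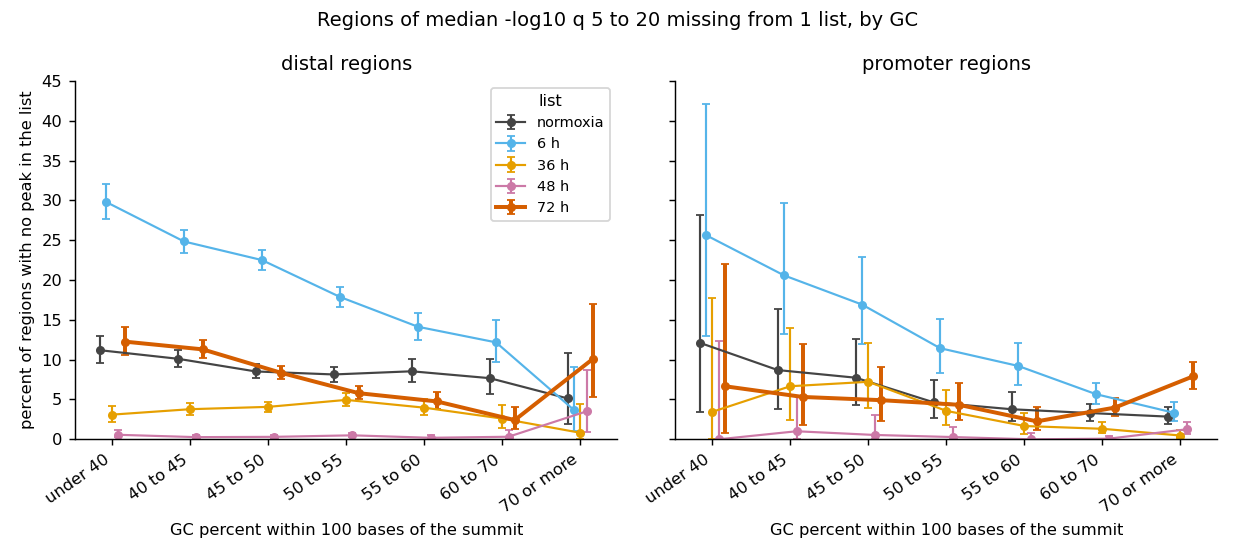
Percent of tested regions of median -log10 q 5 to 20 with no peak in the list shown, against the GC percent within 100 bases of the summit, for distal (left) and promoter regions (right), with exact 95% intervals. Lists shown are Ctrl, 6 h, 36 h, 48 h and 72 h. At 72 h the distal share falls from 12.3% under 40% GC to 2.41% at 60 to 70% and the promoter share is 7.89% at 70% or more, where that of 36 h is 0.478%.

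The lower height at 48 h was present in every GC class looked at. From 5 to 10 in strength, the ratio of mean 48 h reads between regions missing only at 72 h and those kept was 0.834 in distal sites under 45% GC, 0.838 from 45 to 50% and 0.792 at 50% or more. At promoters it was 0.808 under 60%, 0.80 from 60 to 70% and 0.902 at 70% or more. In distal sites under 50% GC the ratios at 12 h and 24 h were 1.03 to 1.06. Strength is the median over the same 6 lists, so a set that is lower in some lists tends to be higher in others. These ratios above 1 therefore do not show a course over time. At promoters of 60% GC or more the ratio at 12 h was 0.80 to 0.838, so there the lower height was not particular to 48 h.

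The promoters among the lost regions belonged to 212 protein-coding genes, or 2.05% of the 10353 genes with a tested region at a start. In 139 of the 212 no 72 h peak lay within 1 kb of any start of the gene, while the others kept a 72 h peak beside the lost one or at another start. Of the 196 promoter regions, 145 had a GC content of 60% or more, and 48 reached a -log10 q of 5 in all 6 lists. Among genes of the fixed lists, 2 had a lost region at a start.

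Erbb2 encodes the receptor tyrosine kinase HER2, which is amplified in part of human breast cancers. Its promoter region, 11 bp from the start, had a -log10 q of 7.73 in Ctrl and 7.08, 25.2, 7.60, 15.2 and 10.1 in the 5 later lists up to 48 h, with 12, 19, 34, 15, 25 and 20 reads. Its expectation at 72 h was 18.3 reads and the nearest 72 h peak was 11522 bp away. A second region in the gene, in an intron 6544 bp from the start, was lost as well, from values of 4.97 to 10.1.

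Ovol1 encodes a zinc finger repressor that keeps cells epithelial. Its promoter region was at 6.05, 11.8, 13.4, 10.5, 13.3 and 9.17 from Ctrl to 48 h, and 16.7 reads were expected at 72 h. Of all tested regions expected to hold 15 to 20 reads, as these promoters were, 13.1% were missing at 72 h. The promoter of Gapvd1, a gene of endosome traffic, lies within 10 kb of Hspa5, which encodes the chaperone BiP. It was at 10.6, 6.15, 13.7, 7.57, 5.34 and 8.54, over a local background of 6.38 to 10.6 reads.

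The promoters that follow were named after their values were seen. By the weakest list, the 5 highest of the 196 were Pigh, 2610034B18Rik (12.9 to 24.3), Fam82a1 (11.2 to 23.2), D930020E02Rik (10.5 to 28.3) and Bckdk, and Sfrp1 had the highest value in any list. At the start of Pigh, a gene of GPI anchor synthesis, -log10 q was 14.4 in Ctrl and 12.9, 17.7, 16.8, 18.1 and 21.1 in the 5 later lists up to 48 h, and the nearest 72 h peak was 40462 bp away. At Sfrp1, a secreted inhibitor of Wnt signalling, it was 9.20, 13.6, 35.5, 29.8, 30.4 and 17.6, with 33.3 reads expected and no 72 h peak within 86188 bp. At Bckdk, a kinase of branched-chain amino acid breakdown, it was 14.4, 10.3, 27.3, 19.1, 14.9 and 16.8. By -log10 q, which is not scaled between lists, Pigh was highest in the last list before 72 h, whereas Sfrp1 and Bckdk were highest at 12 h.

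Hint1, a nucleotide hydrolase gene, was at 9.90 in Ctrl and at 10.0 to 24.7 in the hypoxia lists. A lost region at the start shared by Cebpb, a bZIP transcription factor, and annotated for Tmem189 ran from 6.39 to 17.3, and the genes kept a 72 h peak at a start. Lost regions lay at starts of Arid1a (6.31 to 15.3) and Smarce1 (6.30 to 10.6), which encode subunits of the SWI/SNF chromatin remodeler, and both genes also kept a 72 h peak at a start. A lost region therefore did not mean a promoter without any peak in these 3 cases.

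In gene bodies and within 10 kb of them, 1110 of 14781 genes with a tested region had a lost one, or 7.51%. Of 11 fixed lists, counted by regions, the cell cycle genes had 0 of 53 tested regions missing only at 72 h, which allows a share of up to 6.72%. AP-1 genes and the cytokine and chemokine genes had 0 of 31 each, which allows up to 11.2%. For all protein-coding genes the share was 3.56% (915 of 25702 regions). None of the 3 lists differed from that share beyond its interval.

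HIF targets, the genes that low oxygen switches on through HIF, had 3 of 87 regions (3.45%, interval 0.717 to 9.75). A pair of these was in Loxl2, a lysyl oxidase-like enzyme of the matrix, with values of 3.93 to 20.4 in an intron and 4.22 to 9.44 in an exon. The third lay within 10 kb of Car9, a carbonic anhydrase, at the start of E130306D19Rik. Growth factor receptor genes had 5 of 120 (4.17%), in Erbb2 (both regions above), Egfr, Fgfr2 and Kdr. The intron region of Egfr was the highest of these at 12 h, with 9.35 in Ctrl and 4.88, 29.5, 22.3, 15.9 and 20.8 in the 5 later lists up to 48 h. By genes, 4 of 15 receptors had a lost region (26.7%), and these 15 genes held 120 tested regions, of which the share lost was near that of all genes.

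Epithelial genes had 3 of 58 regions (5.17%) and mesenchymal and matrix genes 3 of 61 (4.92%). In an intron of Ocln, a tight junction protein, -log10 q was 19.1 in Ctrl and 11.4, 31.5, 13.2, 7.27 and 14.8 in the 5 later lists up to 48 h. In an intron of Prrx1, a homeobox gene of mesenchyme, it was 6.08, 10.6, 26.5, 19.2, 11.7 and 14.8. The region near Krt8 was at 2.26 to 11.4, that near Sparc at 2.62 to 11 and that in Itgb1 at 3.24 to 12.0. The stress and unfolded protein list had 2 of 41 (4.88%), at promoters beside Atf4 and Hspa5, the TEAD and YAP list 1 of 70 (1.43%), in Ankrd1, and the factors that the study discusses 2 of 85 (2.35%), in Foxo3 and Nfia. Markers of other cell types had 1 of 12, in Pecam1. All 8 intervals of lists with a lost region held the 3.56% of all genes.

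Among motif letters of distal sites, those of TEAD and HIF stood close to the kept sites over all strengths, and those of AP-1 from 5 to 20 in strength. Among the letters that did not were those of NFY and CEBP over all strengths, and those of TEAD, FOX and the E-box from 5 to 10 in strength. AP-1 letters (TGANTCA) lay within 100 bp of the summit in 51.1% of 1344 distal regions missing only at 72 h and in 57.6% of 26199 in all 7 lists. At equal strength the shares were 48.9% (interval 45.4 to 52.5) against 46.5% from 5 to 10, and 57.5% (52.1 to 62.8) against 56.0% from 10 to 20. The lower share over all strengths was not seen in either of these classes. From 3 to 5 in strength, 36.9% (30.7 to 43.5) of distal tested regions with AP-1 letters were missing at 72 h, against 30.8% of all distal ones. At 20 or more it was 7 of 8094 (0.0865%) against 19 of 12890 (0.147%), so there AP-1 letters were fewer in the lost sites. In classes of GC, from strength 5 to 20, AP-1 letters were in 57.3% against 60.1% under 45%, 53.5% against 55.8% from 45 to 50% and 39.2% (33.6 to 45.1) against 45.6% at 50% or more. TEAD letters (GGAATG) were in 20.8% against 20.6% over all strengths. From 5 to 10 in strength, 19.3% (16.7 to 22.0) of distal tested regions with TEAD letters were missing at 72 h, against 16.1% of all distal ones. From 10 to 20 the shares were 4.24% (3.36 to 5.28) and 3.80%. From 3 to 5 the order was the other way, at 24.0% (16.2 to 33.4) against 30.8%. By GC, TEAD letters were in 22.6% (19.1 to 26.5) against 18.3% under 45%, 23.8% (19.4 to 28.7) against 20.2% from 45 to 50% and 17.4% against 18.3% at 50% or more. The HIF core (ACGTG) was in 11.5% against 11.6%. E-box letters (CACCTG) and FOX letters (TGTTTAC) were fewer in lost sites from 5 to 10 in strength. Distal tested regions with them were missing in 12.9% (10.6 to 15.4) and 10.1% (5.90 to 15.9), against 16.1% of all distal ones. From 10 to 20 the order was the other way, at 3.95% and 4.79% against 3.80%. RUNX letters were in 9.06% (6.71 to 11.9) against 12.4% under 45% GC. From 45 to 50% it was 8.43% against 10.0%, and at 50% or more 7.51% against 6.89%.

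CCAAT, the letters bound by NFY, stood higher in the lost sites. They were in 28.0% (25.6 to 30.5) of the distal regions missing only at 72 h and in 23.2% (22.7 to 23.7) of those in all 7 lists, with 27.8% against 23.0% and 27.7% against 23.5% in the 2 strength classes. By GC, the shares were 33.7% against 26.8% under 45%, 26.5% against 24.4% from 45 to 50% and 19.1% against 20.1% at 50% or more. The gap was widest in the sites poorest in GC and was not present at 50% or more. With the whole interval searched, the order turned, to 57.3% against 63.8%, and the lost regions were narrower (median 553 bp against 797 bp over all classes).

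CEBP letters (TTGCNNAA) were fewer in the lost distal sites, at 6.92% (5.62 to 8.41) against 8.89%, and at 6.51% against 9.15% from 5 to 10 and 6.07% against 9.13% from 10 to 20 in strength. They were also fewer in each GC class, with 7.87% against 11.4% under 45%, 5.81% against 10.3% from 45 to 50% and 4.44% against 6.63% at 50% or more. From 3 to 5 in strength the order turned. There, 19 of 53 distal tested regions with CEBP letters were missing at 72 h (35.8%, 23.1 to 50.2), against 30.8% of all distal ones. SP/KLF letters (GGGCGG) were in 4.24% (3.23 to 5.46) against 7.11%, and ETS letters (CCGGAAG) in 0.893% (0.462 to 1.55) against 1.77%, and both motifs are themselves made of G and C in large part. At 50% GC or more, SP/KLF letters were in 11.3% of lost and 13.1% of kept sites. The CTCF consensus was in 1.86% against 1.65%, and from 5 to 10 in strength in 2.63% (1.63 to 3.99) against 4.51%. The spaced pair of CATG of the p53 consensus was in 13 of 1344 lost distal sites (0.967%, 0.516 to 1.65) against 0.660% over all strengths, and in 6 of 346 lost sites from 10 to 20 in strength (1.73%, 0.639 to 3.74) against 0.605%.

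**Figure D5:**
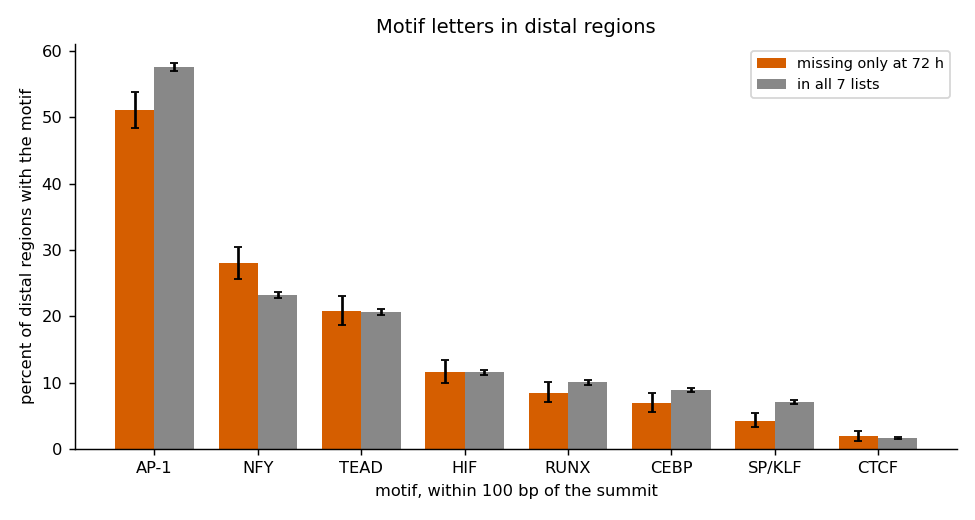
Percent of distal regions with the letters of 8 motifs within 100 bp of the strongest summit, for 1344 regions missing only at 72 h and 26199 regions in all 7 lists, with exact 95% intervals. AP-1 is at 51.1% against 57.6%, NFY at 28.0% against 23.2%, CEBP at 6.92% against 8.89%, and TEAD and HIF lie at the same height in both.

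At promoters, CCAAT went the other way. It lay within 100 bp of the summit in 14.8% of the 128 lost promoters of strength 5 to 10 and in 18.2% of the 875 kept, and in 9.76% of 41 against 23.6% of 2304 from 10 to 20. SP/KLF letters were in 58.6% against 50.7% and in 75.6% against 57.0% in these classes, beside the higher GC of the lost promoters. ETS letters were in 18.8% against 10.5% and in 9.76% against 13.6%, so their order differed between the classes.

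Most lost regions had no 72 h peak close by. The nearest 72 h peak lay at a median of 6697 bp, within 200 bp of 34 of the regions (2.21%) and within 1 kb of 195 (12.7%). For regions missing only at 36 h, the nearest 36 h peak lay at a median of 5945 bp, and 14 of 770 had one within 200 bp (1.82%). The 34 regions are the ones in which a shifted or split peak could stand for the lost one by position.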

How the data were processed

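Bulk ATAC-seq of fixed 4T1 cells was used as 7 deposited peak lists, 1 per group, with groups taken from the sample labels. The authors' reads were aligned to mm9 with Bowtie2 2.1.0 and freed of duplicates with Picard 1.79, per the methods and the submitters' processing notes. Both replicates of each group were pooled, and MACS2 (version not given in the sources used here) called narrow peaks. The deposited fold enrichment is the ratio of summit reads to local background, with 1 added to each. For each summit the deposited lists also give a p-value and a q-value, both as -log10. The deposited score, an integer made from the q-value, was not used. The lowest -log10 q was 1.30 to 1.31 in every list, which is a q of 0.05 and less strict than the methods state for bulk samples. Peaks at mitochondrial-like and excluded regions, which the methods remove, were left in. Read totals per sample were not used here. One marker gene and the sequence of 1 promoter are not reported here. The lists held 49006 to 81732 peaks. No value column was left unmapped to a group (0).

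A peak was a unique interval with its strongest summit. Whole reads and background that give both fold and -log10 p were solved for every summit, within 0.001. Each region was described at the strongest summit of the lists that held it. Expected 72 h reads were the median, over the other 6 lists, of reads times the median 72 h to list ratio of regions in all 7 lists. Genes came from GENCODE vM1 on NCBIM37, the assembly of mm9, whose chromosome names and lengths match the lists. Motifs were 16 fixed letter strings searched on both strands within 100 bases of the summit. The CTCF consensus, the NFI and NRF1 sites and the p53 pair of CATG were among them.

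The regions, the gene lists (11 lists, 228 entries) and all rules were chosen with earlier results of these data known. Named regions were the 10 with the highest -log10 q in their weakest list, in Ctrl and at 48 h, those within 1 kb of a start of a list gene, and those within 10 kb of a list gene with every list at 5 or more. Other genes of the lists are given with their regions for completeness, and regions named by nearest start near Klf5 and Klf6 and other promoters were chosen after their values were seen. With 1 list per group no test was run, and with replicates pooled no replicate error can be had; the labels do not say whether replicates were separate cultures. Alternatives covered stricter -log10 q, list length, merging, summit distance, overlap, autosomes, each list left out, promoter distance and the motif window. The recovery of reads, the merging with the rule for missing regions and the motif search were tested on simulated data. The other steps were not. Scripts ran under Python 3.11.15 with pandas 2.3.3, numpy 2.4.6, pysam 0.24.0, matplotlib 3.10.9 and scipy 1.17.1.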

Additional observations from a re-analysis of the deposited data

How the results depend on the processing

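No paired analysis was possible because the replicates of each group were pooled before peaks were called, and for the same reason no replicate could be left out. The count of 1540 regions stayed between 1320 and 1989 in 10 alternatives: -log10 q of 2 or of 5 or more in all lists, merging within 200 bp, summits, autosomes, and leaving the Ctrl, 12 h, 24 h, 36 h or 48 h list out of the rule. It was 344 with -log10 q of 5 or more in the other 6 lists and any 72 h peak counted, 685 with the 20000 strongest peaks of every list, 3084 without the 6 h list and 3431 where a 72 h peak had to cover 50% of the narrowest other peak. The promoter share of 12.7% was 18.7% with -log10 q of 5 or more in all lists, 24.1% with the 20000 strongest peaks, 32.7% with the 50% overlap and 22.8% with promoters of 5 kb. It was below that of regions kept in the alternatives computed for it apart from the 50% overlap, and it was not computed with a list left out of the rule. The AP-1 share of distal regions, 51.1%, was 56.2% with -log10 q of 5 or more in all lists, 63.1% with the 20000 strongest peaks, 61.8% with the whole interval searched and 47.2% at the Ctrl summit. The fixed lists had 2 genes with a lost region at a start, and 4 with 5 kb around a start. The median of expected 72 h reads was 17.1, and 18.7 when scaled on weak regions. Depth limits what can be said of weak regions, since 24.8% of tested regions expected to hold 11 to 15 reads lacked a 72 h peak.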
